A study of Mus musculus with 8 samples.

Results

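Aminoacyl-tRNA synthetases attach each amino acid to its tRNA. Their genes were picked out of a table of RNA levels in late 2-cell mouse embryos by gene symbol: any symbol of 1 letter followed by "ars", with or without a final 2, together with Eprs, Farsa, Farsb and the scaffold genes Aimp1 and Aimp2. The rule found 39 genes among 34976 symbols. Of these, 20 encode cytosolic enzymes or enzyme subunits, 17 have a symbol ending in 2 and encode mitochondrial enzymes, and 2 encode scaffold proteins. The embryos came from CF-1 mice, an outbred stock, and all were injected at the early 1-cell stage. One group received a morpholino (an antisense oligonucleotide that binds RNA), labelled as directed at the start site of Med13 (Med13-MO). The control group received a scrambled morpholino (Scr-MO). Each group has 4 libraries, each from total RNA of a separate collection of 40 embryos, so the comparison tests for a difference beyond the spread between collections. MED13 belongs to the kinase module of Mediator, which links transcription factors to RNA polymerase II, and the series concerns zygotic genome activation, the onset of the embryo's own transcription.

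Each tRNA is charged in the cytosol by one enzyme for its amino acid and in mitochondria by another, usually from a separate nuclear gene. Gars and Kars are exceptions, since each gene serves both compartments, and Eprs charges tRNAs with glutamate and with proline. In mammals 8 of the cytosolic enzymes (Dars, Eprs, Iars, Kars, Lars, Mars, Qars and Rars) are held in the multisynthetase complex by AIMP1, AIMP2 and EEF1E1. The transcription factor ATF4, which is translated when amino acids are short or tRNAs are uncharged, is known to activate many cytosolic synthetase genes through a C/EBP-ATF response element (CARE).

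RefSeq promoters (build GRCm38.p6, from 250 bases before to 50 bases after each annotated start) were available for 28 of the 39 genes. The CARE letters TGATGNAA, read on both strands, occurred in 5 of the 28 (17.9%), against 4.51% of 27025 mouse genes with such a promoter. All 5 are cytosolic: Aars, Gars, Iars, Tars and Yars charge alanine, glycine, isoleucine, threonine and tyrosine. The 28 promoters cover 12 of the 20 cytosolic, 14 of the 17 mitochondrial and both scaffold genes, and the other genes could not be searched. Of the 6 matches, 1 in each gene is printed with 10 bases on either side, as read along the strand of the gene, because this is the element shared by these 5 genes. Capitals mark the match, which reads forward in Yars and as its reverse complement in the others.
Aars, chr8:111033841-111033868, plus strand, at transcribed base 10: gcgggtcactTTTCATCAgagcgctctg
Gars, chr6:55037961-55037988, plus strand, first base of the match 30 before the start: ggctgcgctaTTTCATCAtgcaccgggc
Iars, chr13:49682127-49682154, plus strand, at transcribed base 8: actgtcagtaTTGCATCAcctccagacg
Tars, chr15:11399656-11399683, minus strand, 15 before the start: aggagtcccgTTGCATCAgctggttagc
Yars, chr4:129189896-129189923, plus strand, at transcribed base 4: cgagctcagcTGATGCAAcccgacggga

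The E-box letters CACGTG, which are the same on both strands and are read by MYC and related factors, were also present in 5 of the 28 promoters (17.9%: Aars, Ears2, Farsb, Iars and Tars), against 8.09% of all genes. Aars, Iars and Tars held both.
A match says only that the letters are there, and binding was not measured.

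The libraries held 31378977 to 48050262 fragments, as recovered from the deposited values. Med13 itself had 42.2 ± 2.14 FPKM (fragments scaled to transcript length and to the library total) after Med13-MO and 41.3 ± 4.31 FPKM after Scr-MO (SD, n = 4 each; log2 difference 0.03, two-sided exact permutation p = 0.629, the smallest possible being 0.0286), so the RNA level gives no check of the labels; a morpholino can act without lowering its target RNA. Of 13 markers of the oocyte and the 2-cell embryo, 12 averaged at least 1 FPKM. Of these 12, 9 were called higher and 0 lower after Med13-MO, against 9.29% and 7.81% of all genes tested. The 13 markers summed to 1193 to 1243 FPKM after Med13-MO, against 653.5 to 824 FPKM after Scr-MO. The largest part came from Dppa3, which was not called (536 ± 119 FPKM after Med13-MO, 557 ± 58.2 FPKM after Scr-MO, limma adjusted p = 0.802). Markers of cumulus (1 of 10 at 1 FPKM or more), sperm (0 of 5 in the table, 7 listed), blood and immune (1 of 8) and oviduct cells (2 of 5) summed to 12.5 to 16.8, 0.351 to 0.892, 1.87 to 2.85 and 29.3 to 36.7 FPKM after Med13-MO, against 10.9 to 16.0, 0.276 to 1.14, 1.33 to 3.66 and 25.3 to 35.6 FPKM after Scr-MO. Of these, the oviduct marker Ovgp1 was lower after Med13-MO (log2 fold change -0.48, limma adjusted p = 0.0440), and 0 markers were at 0 in all libraries. Epcam, the other measured oviduct marker, was not called (0.34, limma adjusted p = 0.223). Most of the oviduct sum came from Epcam (mean over 8 libraries 26.5 FPKM). Most of the cumulus sum came from Amhr2 (13.1 FPKM). The part of these markers in the synthetase differences was not tested. In bulk RNA, fewer cells of a type and less RNA per cell cannot be told apart.

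The mean levels of the synthetase genes ran from 0.219 to 294 FPKM in these embryos. The FPKM values were summed over the annotated transcripts of a gene. Of the 39 genes, 29 averaged at least 1 FPKM over the 8 libraries and entered the test: 18 of 20 cytosolic, 9 of 17 mitochondrial and both scaffold genes. The mitochondrial leucyl enzyme gene Lars2 stood above all others with a mean of 294 FPKM, the 67th highest of the 11755 genes tested, whereas the next synthetase, the cytosolic arginyl enzyme gene Rars, averaged 38.6 FPKM and ranked 852nd. The 10 genes below the filter were Aars2, Cars, Fars2, Iars2, Nars2, Pars2, Rars2, Sars2, Vars and Vars2. They averaged 0.219 to 0.941 FPKM. Both valyl enzyme genes were among them.

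**Figure D1:**
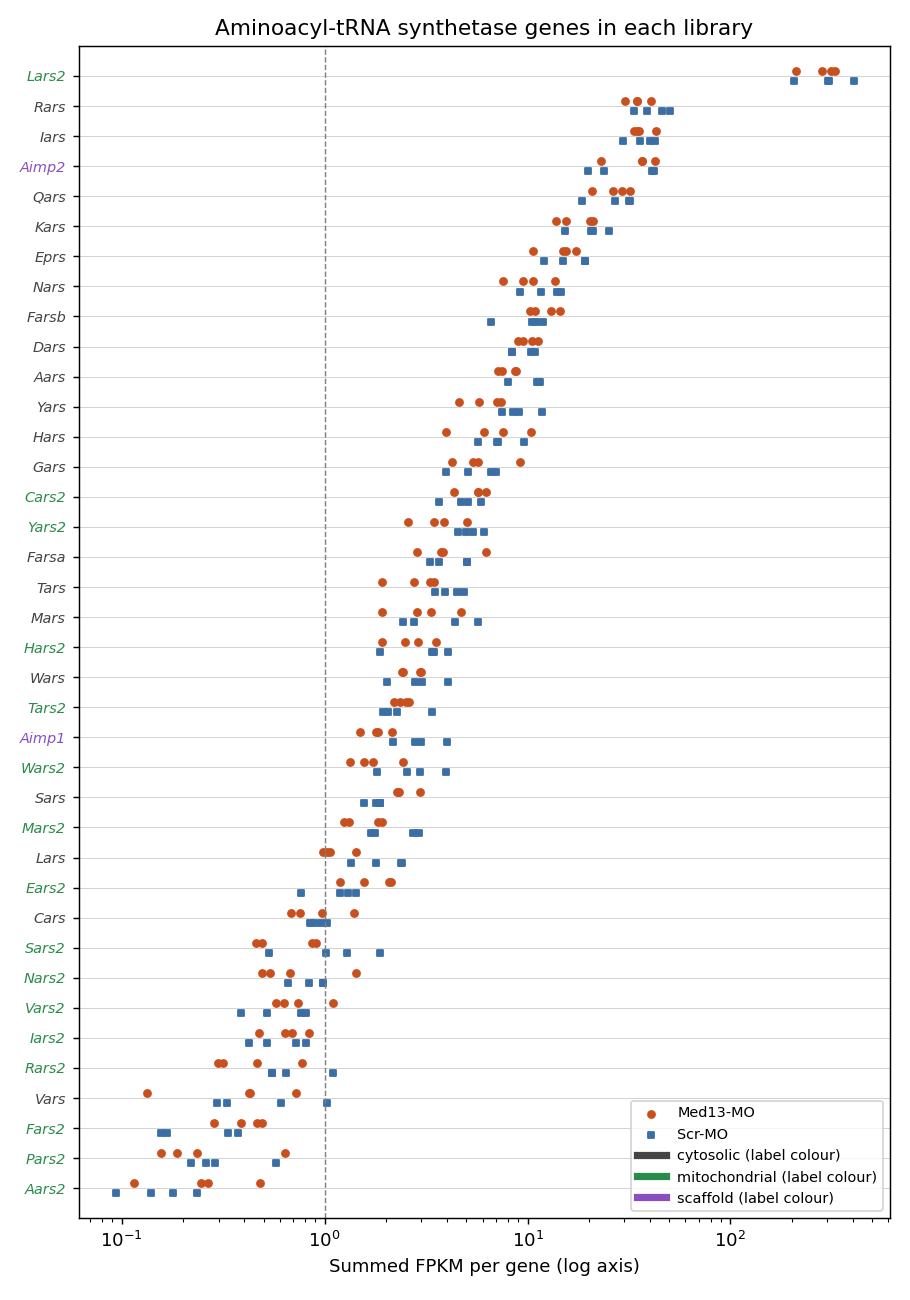
Summed FPKM (log axis) of 38 of the genes in each of the 8 libraries, ordered by mean level, with Med13-MO as circles and Scr-MO as squares; label colours give the class and the dashed line marks 1 FPKM. Lars2 lies between 206 and 405 FPKM, apart from the rest, and most mitochondrial genes lie in the lower part.

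None of the 29 measured genes passed the limma test at an adjusted p below 0.05: 0 were higher and 0 were lower after Med13-MO. Over all 11755 genes tested, 17.1% were called, 9.29% higher and 7.81% lower. At an unadjusted p below 0.05, 1 synthetase gene was higher and 7 were lower, against 15.6% higher and 16.7% lower over all genes. The log2 fold changes, Med13-MO over Scr-MO on log2(FPKM + 1), ran from -0.50 (Yars) to 0.33 (Ears2) with a median of -0.11, and 20 of 29 were below 0. Over all genes the median was -0.06 and 55.5% were below 0. The 95% interval of every one of the 29 genes lay within -1 to 1 on this scale, and 81.8% of all genes had such an interval. The outermost bounds were -0.90 (Yars) and 0.73 (Aimp2), ratios of 0.538 and 1.66 in FPKM + 1, which are not ratios of FPKM for genes at a few FPKM. Other processing gave between 0 and 8 genes called lower and 0 or 1 called higher. The 8 came with array weights, a fit that called 36.9% of all genes. Without Scr-MO replicate 2 there were 5 called lower (Aars, Aimp1, Lars, Wars2 and Yars), where 20.3% of all genes were called. Without Med13-MO replicate 4 there were 2 (Lars and Yars2), where 17.6% of all genes were called.

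**Figure D2:**
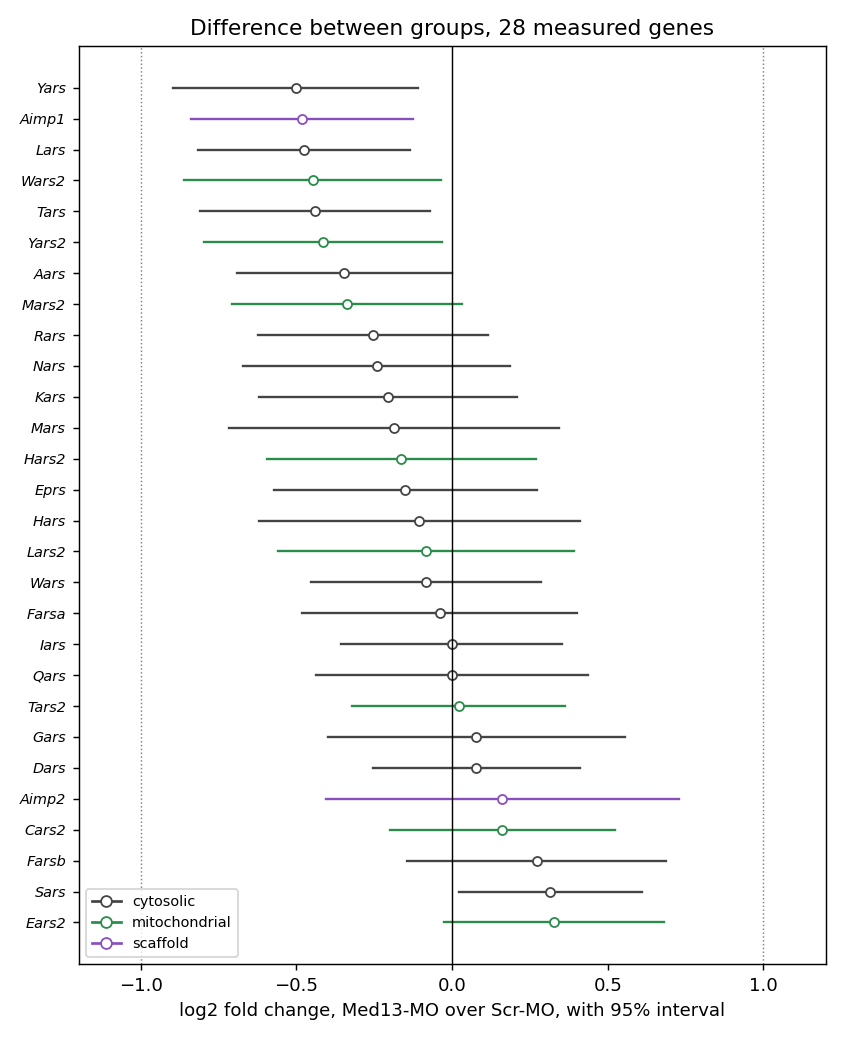
Log2 fold change of 28 measured genes, Med13-MO over Scr-MO, with its 95% limma interval (x axis, scale of log2(FPKM + 1)); colours give the class and dotted lines mark -1 and 1. All 28 intervals lie between the dotted lines, from -0.90 to 0.73.

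Among the cytosolic enzymes, Rars was the most abundant measured gene (chr11:35808381-35834506, minus strand, build GRCm38). It had 30.2, 34.7, 40.5 and 34.6 FPKM after Med13-MO, against 46.0, 33.6, 50.4 and 38.9 FPKM after Scr-MO. The groups overlapped (log2 fold change -0.25 ± 0.17 SE, limma adjusted p = 0.321). Scr-MO replicate 2 lay below 3 of the Med13-MO libraries, and Scr-MO replicate 4 lay below Med13-MO replicate 3. Lars, the cytosolic leucyl enzyme gene (chr18:42202298-42262194, minus strand), was the least abundant measured one. Its level was 1.02, 0.978, 1.07 and 1.42 FPKM after Med13-MO, against 2.40, 1.35, 1.78 and 2.38 FPKM after Scr-MO. Here only the highest Med13-MO and the lowest Scr-MO library crossed, and the adjusted p was the smallest of the family (log2 fold change -0.48 ± 0.16 SE, limma adjusted p = 0.0554). It passed the threshold with limma array weights (adjusted p = 0.0038), without Scr-MO replicate 2 (0.0174), without Med13-MO replicate 4 (0.0466), and with 4 other settings. Over all 17 other settings its limma adjusted p reached 0.146 at the highest. Lars was backed by 133 to 359 fragments per library.

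The genes closest to the threshold after Lars were chosen for description after their values were seen. Yars (chr4:129189760-129219607, plus strand), the tyrosyl enzyme gene, had 4.61, 5.76, 7.41 and 7.09 FPKM after Med13-MO, against 8.48, 7.52, 11.7 and 9.07 FPKM after Scr-MO. All Med13-MO libraries lay below all Scr-MO libraries, the nearest being 7.41 and 7.52 FPKM. The log2 fold change was -0.50 ± 0.18 (SE) with a limma adjusted p of 0.0761, and without Scr-MO replicate 2 that p was 0.0448. Over 18 other settings it ran from 0.0087 to 0.298. Tars, the threonyl enzyme gene (chr15:11382301-11399665, minus strand), had 1.93, 3.45, 3.32 and 2.77 FPKM after Med13-MO, against 3.52, 3.92, 4.50 and 4.89 FPKM after Scr-MO, also without overlap (-0.44 ± 0.17 SE, limma adjusted p = 0.0933). The seryl enzyme gene Sars (chr3:108424865-108445209, minus strand) was separated in the other direction, with 2.34, 2.30, 2.94 and 2.27 FPKM after Med13-MO, against 1.87, 1.88, 1.80 and 1.56 FPKM after Scr-MO (0.32 ± 0.14 SE, limma adjusted p = 0.127). With Aimp1, described below, 3 of the 29 genes had all Med13-MO libraries lower and 1 had all of them higher, 4 of 29 in all. Over all genes these shares were 11.1% and 10.4%, or 21.6% in all. Aars, with 8.01 ± 0.786 FPKM after Med13-MO and 10.5 ± 1.66 FPKM after Scr-MO, had an adjusted p of 0.153 by limma (log2 fold change -0.35). Without Scr-MO replicate 2, its lowest control value, that p was 0.0393, and over 18 other settings it reached 0.321 at the highest. Aars shares 15.1% of its exonic bases with Exosc6 on the same strand, and 23.1% of its main transcript matched Exosc6.

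The 5 genes whose promoters hold the CARE letters did not share a value. Their log2 fold changes were -0.50 for Yars, -0.44 for Tars, -0.35 for Aars, -0.00 for Iars and 0.08 for Gars, and 0 of 5 passed the test. Iars, the isoleucyl enzyme gene, had 36.6 ± 4.30 FPKM after Med13-MO and 36.8 ± 5.65 FPKM after Scr-MO (limma adjusted p = 0.996). Gars, the glycyl enzyme gene, had 6.12 ± 2.13 FPKM after Med13-MO and 5.66 ± 1.40 FPKM after Scr-MO (limma adjusted p = 0.833). The Iars level carries a limit of its own: 51.7% of its main transcript matched 32 other genes at 95% identity or more, the longest match being 1656 bases (96.0% identical) to the processed pseudogene Gm4849.

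The remaining cytosolic enzyme genes ranged from Qars to Wars in level, with adjusted p from 0.346 to 0.998 by limma. Qars, for glutamine, had 27.1 ± 4.81 FPKM after Med13-MO and 27.3 ± 6.25 FPKM after Scr-MO. Kars, for lysine, had 17.7 ± 3.56 FPKM after Med13-MO and 20.5 ± 4.06 FPKM after Scr-MO, and Eprs had 14.6 ± 2.84 FPKM after Med13-MO and 16.4 ± 3.49 FPKM after Scr-MO. The asparaginyl gene Nars had 10.3 ± 2.58 FPKM after Med13-MO and 12.3 ± 2.44 FPKM after Scr-MO, and the aspartyl gene Dars had 10.1 ± 1.05 FPKM after Med13-MO and 9.52 ± 1.32 FPKM after Scr-MO. All of these differences were smaller than the spread within the groups. Hars, for histidine, which shares 7.97% of its exonic bases with Hars2 on the opposite strand, had 7.03 ± 2.73 FPKM after Med13-MO and 7.38 ± 1.62 FPKM after Scr-MO. Mars, for methionine, had 3.20 ± 1.15 FPKM after Med13-MO and 3.82 ± 1.52 FPKM after Scr-MO, and Wars, for tryptophan, had 2.69 ± 0.324 FPKM after Med13-MO and 2.97 ± 0.834 FPKM after Scr-MO.

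Phenylalanyl-tRNA synthetase of the cytosol is built from equal numbers of an alpha subunit, encoded by Farsa, and a beta subunit, encoded by Farsb. Farsb had 12.2 ± 1.89 FPKM after Med13-MO and 10.03 ± 2.36 FPKM after Scr-MO, and Farsa had 4.18 ± 1.46 FPKM after Med13-MO and 4.24 ± 0.902 FPKM after Scr-MO. The ratio of Farsb to Farsa RNA was 5.02, 2.90, 2.69 and 2.08 after Med13-MO, against 3.02, 2.00, 2.11 and 2.39 after Scr-MO. It was at or above 2.00 in all 8 libraries, with the highest value in Med13-MO replicate 1. Protein-coding transcripts held 39.0% of the summed Farsa FPKM and 63.0% of the summed Farsb FPKM, so the ratio does not compare subunit mRNA alone. The groups overlapped.

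The 10 genes of the multisynthetase complex in the rule, 8 enzymes and 2 scaffolds, had a median log2 fold change of -0.17, and the 10 measured cytosolic genes outside it had a median of -0.09. Within the complex, mean levels ran from 38.6 FPKM (Rars) to 1.55 FPKM (Lars), a range of 24.9-fold. Rars sums 5 listed transcripts, with 65.2% of its FPKM in protein-coding ones, and Lars has 1, so the range does not compare mRNA alone. Aimp2 was the more abundant scaffold. It had 22.9, 36.7, 36.6 and 42.2 FPKM after Med13-MO, against 23.9, 19.8, 41.1 and 42.0 FPKM after Scr-MO, with overlapping groups and the widest interval of the family (log2 fold change 0.16 ± 0.26 SE, limma adjusted p = 0.704). Aimp2 shares 29.4% of its exonic bases with Eif2ak1 on the opposite strand, and no source used here says whether the counting used strand. Of its main transcript, 41.2% matched Eif2ak1. Aimp1 had 1.501, 2.16, 1.83 and 1.79 FPKM after Med13-MO, against 2.98, 2.16, 4.00 and 2.77 FPKM after Scr-MO. The Med13-MO libraries all lay below the Scr-MO libraries, replicate 2 of each group differing in the third decimal (log2 fold change -0.48 ± 0.16 SE, limma adjusted p = 0.0614). Without Scr-MO replicate 2 the adjusted p was 0.0226, and over 17 other settings it reached 0.188 at the highest.

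Eef1e1, also called Aimp3, is the third auxiliary protein of the complex and did pass the test. It had 5.67, 8.70, 11.5 and 9.37 FPKM after Med13-MO, against 16.4, 23.6, 15.3 and 13.3 FPKM after Scr-MO. All Med13-MO libraries lay below all Scr-MO libraries (log2 fold change -0.89 ± 0.22 SE, limma adjusted p = 0.0171). Its adjusted p reached 0.0705 at the highest among the other settings, and the call was lost in 2 of 18, one of them the fit without Med13-MO replicate 2. Whether Eef1e1 differed more than Aimp1 or Aimp2 was not tested.

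Among the mitochondrial enzymes, Lars2 (chr9:123366927-123462666, plus strand) had 209, 312, 284 and 329 FPKM after Med13-MO, against 206, 405, 303 and 305 FPKM after Scr-MO. The lowest and the highest of the 8 values were both control libraries (log2 fold change -0.08 ± 0.22 SE, limma adjusted p = 0.820). Its only listed transcript was given 30162 to 67726 fragments per library. Where along the transcript they lay, and whether all came from Lars2 mRNA, was not tested. A stretch of 72 bases, 71 of them identical, also matched the transcript of Gm15564, and 0 of its exonic bases are shared with an overlapping gene. Cars2 shares 5.83% of its exonic bases with Naxd on the opposite strand.

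The median log2 fold change of the 9 measured mitochondrial genes was -0.08, and that of the 18 cytosolic ones was -0.13. Yars2, for tyrosine, had 3.74 ± 1.01 FPKM after Med13-MO and 5.24 ± 0.663 FPKM after Scr-MO (log2 fold change -0.42, limma adjusted p = 0.123). It passed the threshold without Med13-MO replicate 4 (adjusted p = 0.0489), and its highest adjusted p over 17 other settings was 0.367. Wars2, for tryptophan, had 1.77 ± 0.473 FPKM after Med13-MO and 2.81 ± 0.893 FPKM after Scr-MO (-0.45, limma adjusted p = 0.123). It passed without Scr-MO replicate 2 (adjusted p = 0.0389), and its highest adjusted p over 17 other settings was 0.310. Ears2, for glutamate, had the highest positive value, with 1.74 ± 0.445 FPKM after Med13-MO and 1.18 ± 0.291 FPKM after Scr-MO (0.33, limma adjusted p = 0.187). Protein-coding transcripts held 29.3% of its summed FPKM, and its main transcript is a retained-intron one. Cars2, for cysteine, had 5.49 ± 0.807 FPKM after Med13-MO and 4.82 ± 0.919 FPKM after Scr-MO, and Mars2, for methionine, had 1.57 ± 0.341 FPKM after Med13-MO and 2.28 ± 0.631 FPKM after Scr-MO. Hars2, for histidine, had 2.71 ± 0.681 FPKM after Med13-MO and 3.19 ± 0.928 FPKM after Scr-MO, and Tars2, for threonine, had 2.42 ± 0.189 FPKM after Med13-MO and 2.41 ± 0.671 FPKM after Scr-MO. The log2 fold changes of these 4 ran from -0.34 (Mars2) to 0.16 (Cars2). Fitted without the filter on low values, the 10 genes below 1 FPKM had log2 fold changes from -0.35 to 0.16 and a smallest limma adjusted p of 0.391. As few as 0 to 6 fragments per library lay behind the main transcript of Vars, and 15 to 74 behind that of Aars2.

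Cytosolic and mitochondrial genes for the same amino acid form 18 pairs, in which Eprs and Fars2 each stand in 2 pairs. The cytosolic gene was the higher one in all 8 libraries in 12 pairs. Examples are arginine (Rars 38.6, Rars2 0.589 FPKM) and isoleucine (Iars 36.7, Iars2 0.640 FPKM). The mitochondrial gene was higher in all 8 libraries for leucine (Lars2 294, Lars 1.55 FPKM) and cysteine (Cars2 5.16, Cars 0.941 FPKM). The cytosolic gene was higher in 7 of 8 libraries for serine, threonine and tryptophan, and in 1 of 8 for valine. Since the summed FPKM depends on how many transcripts are annotated, these orders describe the table and carry no test.

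**Figure D3:**
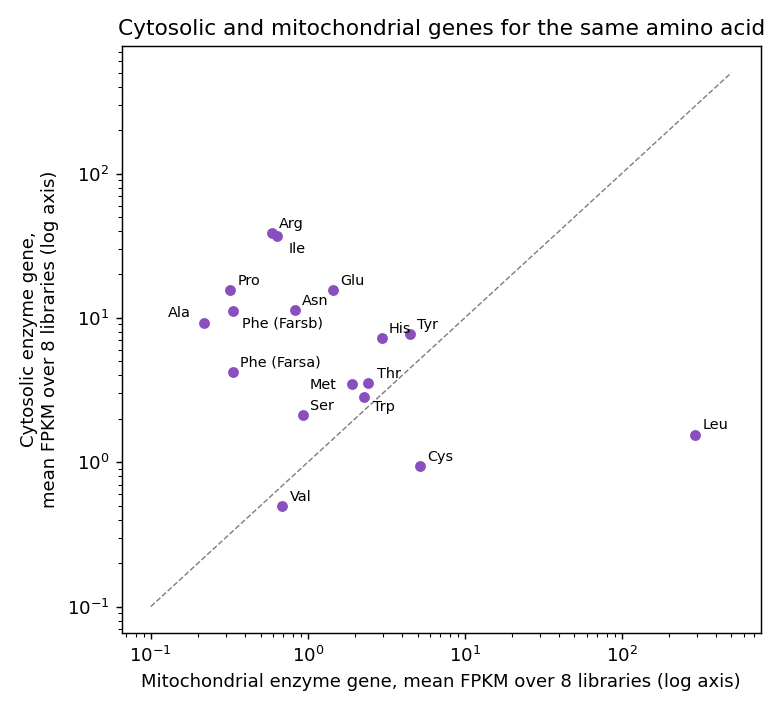
Mean FPKM over 8 libraries of the mitochondrial gene (x, log axis) and the cytosolic gene (y, log axis) for 17 of the pairs; the dashed line marks equal levels. Leucine, cysteine and valine lie below the line, with Lars2 at 294 FPKM.

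In Med13-MO replicates 1 and 2, 27 and 22 of the 29 genes lay below their own mean over the 8 libraries, and in Scr-MO replicate 2, 24 of 29 did. Of all 11755 genes tested, 7374, 6762 and 7915 lay below their own mean in the same libraries. The mean deviation of the cytosolic genes on the log2(FPKM + 1) scale was -0.32, -0.13, 0.04 and 0.16 in Med13-MO replicates 1 to 4, against 0.04, -0.23, 0.22 and 0.22 in Scr-MO replicates 1 to 4. The mitochondrial genes gave -0.30, -0.06, -0.03 and 0.16 after Med13-MO, against 0.01, -0.16, 0.23 and 0.14 after Scr-MO. The means over all genes tested were also lowest in Med13-MO replicate 1 and Scr-MO replicate 2, with smaller deviations, -0.08, -0.03, 0.01 and 0.08 after Med13-MO, against 0.00, -0.12, 0.06 and 0.08 after Scr-MO. The summed FPKM of the cytosolic genes was 175, 196, 229 and 236 after Med13-MO, against 228, 177, 260 and 249 after Scr-MO. In Scr-MO replicate 2 the 10 most abundant genes took 20.8% of the summed FPKM, against 16.4% to 17.5% after Med13-MO and 13.0% to 13.8% in the other Scr-MO libraries. The part of this difference in the synthetase values was not tested. Lars2 ran the other way, with its highest value (405 FPKM) in that library.

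**Figure D4:**
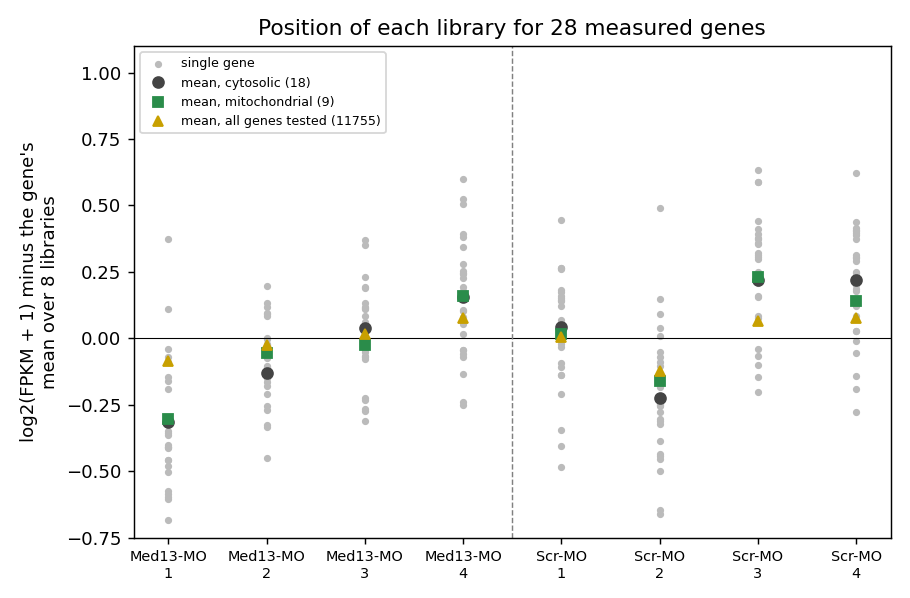
Deviation of 28 measured genes, each from its own mean over 8 libraries (y axis, log2(FPKM + 1); grey points), with class means and the mean of all genes tested, for the Med13-MO and then the Scr-MO libraries. Med13-MO replicate 1 and Scr-MO replicate 2 lie lowest, with cytosolic means of -0.32 and -0.23.

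The 39 genes were listed as 212 transcripts, of which 89 are annotated as protein-coding and 82 as retained-intron transcripts. Protein-coding transcripts held 69.5% to 70.9% of the summed synthetase FPKM in every library when Lars2 was left out. In the test of single transcripts, 60 from 23 of the genes averaged at least 1 FPKM; 2 were called lower and 0 higher after Med13-MO, against 15.7% called of all 21052 transcripts tested. One was the only listed transcript of Lars, whose limma adjusted p was 0.0455 here and 0.0554 in the test by gene. The other was a retained-intron transcript of Qars with a length of 417 bases. It had 0.616 ± 0.142 FPKM after Med13-MO and 1.90 ± 1.15 FPKM after Scr-MO (log2 fold change -0.76, limma adjusted p = 0.0371). No source used here says how fragments were divided among the transcripts of a gene. The 17 listed transcripts of Qars are not independent.

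Genes acting beside the synthetases held 16 calls among 120 measured genes, 5 higher and 11 lower after Med13-MO. Over all genes tested 17.1% were called, 9.29% higher and 7.81% lower. For the proteins that deliver charged tRNAs to the ribosome, 0 of 6 were called by limma (1 lower at an unadjusted p below 0.05), and the most abundant, Eef1a1, had 168 ± 8.75 FPKM after Med13-MO and 145 ± 24.9 FPKM after Scr-MO. Related enzymes and amidation factors had 1 call of 8, Eef1e1. RNA polymerase III and its factors, which transcribe tRNA genes, had 4 of 23 lower (17.4%) and 0 higher, a total close to the 17.1% called over all genes, with a median log2 fold change of -0.26. Bdp1, a subunit of the initiation factor TFIIIB, had 15.3 ± 2.72 FPKM after Med13-MO and 26.4 ± 4.49 FPKM after Scr-MO (-0.75, limma adjusted p = 0.0137). The polymerase subunit genes Polr3f and Polr3g had log2 fold changes of -0.56 and -0.53 (limma adjusted p = 0.0194 and 0.0433). The fourth was the TFIIIC subunit gene Gtf3c3, named after its value was seen.

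In tRNA processing and export, 2 of 24 genes were higher and 3 lower (20.8% called, against 17.1% of all genes). Clp1, an RNA kinase of tRNA splicing and mRNA 3′ processing, had 19.2 ± 1.63 FPKM after Med13-MO and 11.4 ± 1.64 FPKM after Scr-MO (log2 fold change 0.70, limma adjusted p = 0.0097). Trnt1, which adds the CCA end that synthetases charge, had 22.1 ± 2.52 FPKM after Med13-MO and 35.4 ± 5.07 FPKM after Scr-MO (-0.65, limma adjusted p = 0.0177). Xpot, the tRNA exporter gene, had a log2 fold change of -0.64 (limma adjusted p = 0.0234). The others, named after their values were seen, were Pop7 (higher) and Elac2 (lower). In tRNA modification 1 of 36 was higher and 2 were lower (8.33% called, against 17.1% of all genes). The methyltransferase gene Trmt5 had a log2 fold change of 0.94, the pseudouridine synthase gene Pus7 one of -0.72 and the queuine transferase subunit gene Qtrtd1 one of -0.66, with limma adjusted p of 0.0135, 0.0228 and 0.0375.

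Of 23 measured genes of the amino acid response, 2 were higher and 1 was lower (13.0% called, against 17.1% of all genes), with a median log2 fold change of 0.07. Atf4 had 38.7 ± 7.62 FPKM after Med13-MO and 34.7 ± 2.17 FPKM after Scr-MO (0.13, limma adjusted p = 0.632). The mitochondrial serine hydroxymethyltransferase gene Shmt2 had 2.94 ± 0.585 FPKM after Med13-MO and 1.40 ± 0.651 FPKM after Scr-MO (0.74, limma adjusted p = 0.0246). Phgdh, the first enzyme gene of serine synthesis, was lower (-0.91, limma adjusted p = 0.0429), and Trib3, a pseudokinase gene induced by ATF4, was higher (0.52, limma adjusted p = 0.0442). Most of the 16 calls in these lists were lost when 1 library or another was left out. Over all genes, the 2010 calls became 956 without Med13-MO replicate 2, 1113 without Scr-MO replicate 3 and 2060 without Med13-MO replicate 4. The 11 lower calls became 0 without Med13-MO replicate 2, 3 without Scr-MO replicate 3, 4 without Med13-MO replicate 1, 5 without Med13-MO replicate 3, Scr-MO replicate 1 or Scr-MO replicate 4, and 18 without Med13-MO replicate 4. The 5 higher calls became 2 without Med13-MO replicate 2, 3 or 4, and 3 without Scr-MO replicate 1 or 3. Of the called genes described here with values, Clp1 alone kept its call in all 18 other settings.

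**Figure D5:**
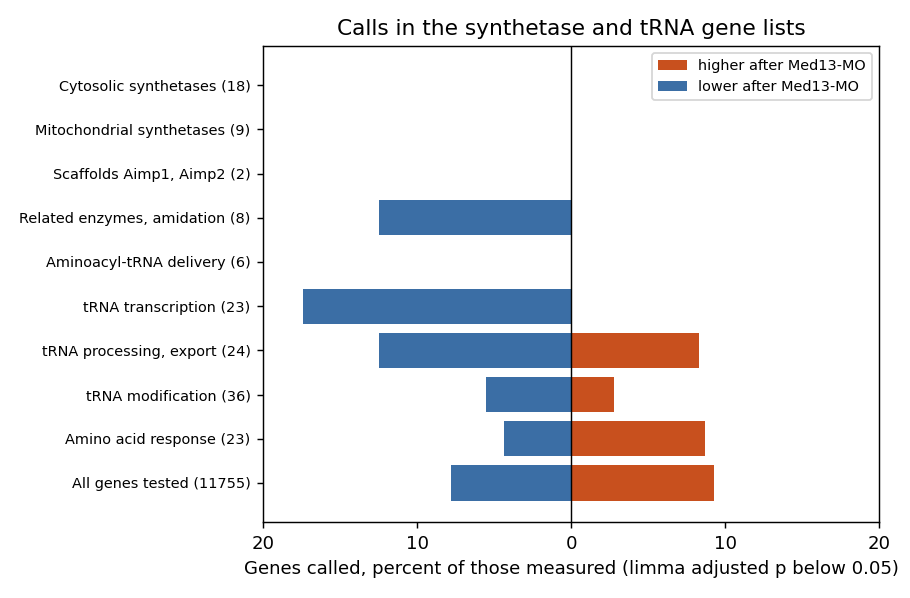
Share of measured genes called higher (right) or lower (left) after Med13-MO in each list (x axis, percent; number measured in brackets), with all genes tested at the bottom. The 3 synthetase classes have no call, and tRNA transcription genes have 17.4% called, all lower.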

How the data were processed

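The authors deposited 1 table of FPKM values per Ensembl transcript with gene symbols (97496 rows). BWA and mm10 are named in the submitters' processing notes; no source used here names the counting tool, the annotation release or the strand setting. Per the labels' protocols, RNA was amplified with Ovation V2 and 400 ng of cDNA entered TruSeq libraries, without molecular identifiers. In 3758 rows, those whose symbol holds a hyphen, values stand 1 column off; these rows were left out, and 0 synthetase genes are among them. The values of 1 synthetase gene and some promoter sequence are not reported here. The 93738 other rows were summed by symbol.

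Low FPKM values, multiplied by transcript length, fell on steps of 0.5 fragments (94.3% to 94.5% within 0.005 fragments), which gave the library totals. A fragment shared by several transcripts may enter a summed FPKM repeatedly.

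The 11755 genes whose FPKM averaged 1 or more entered limma 3.58.1 (R 4.3.3) as log2(FPKM + 1), in a two-sided moderated test that followed the trend of variance with level and had no covariate. Benjamini-Hochberg adjustment ran over all of them, with a threshold of 0.05. The log2(FPKM + 1) scale understates the change of low genes. Transcripts were tested likewise. Scripts were tested on simulated data. Gene positions and overlaps came from GENCODE M21 (GRCm38), and sequence matches from BLAST+ 2.17.0 (at least 50 bases, 95% identity). Motifs were counted in RefSeq promoters.

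The synthetase genes and the other lists were chosen with earlier results of these data known. Values per library were given for genes past the threshold and for the most and least abundant measured gene of each class; in other lists up to 3 called genes with the smallest adjusted p were named, or else the most abundant, with Eef1e1 and Atf4 always. Alternatives changed the pseudocount (0.1, 5), the filter (none, mean of at least 5), the scaling (median-ratio, quantile), the weights, the transcripts summed, the trend, and left out each library.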

Additional observations from a re-analysis of the deposited data

Results flagged for a closer look

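Among 58 groups of 4 libraries (29 genes in each group), 2 held a library far from the other 3, where chance flags about 1 group in 20. Sars had 2.94 FPKM in Med13-MO replicate 3, and 2.27, 2.30 and 2.34 FPKM in the other Med13-MO libraries, a gap of 0.897 of the range. Aars had 8.04 FPKM in Scr-MO replicate 2, and 11.2, 11.4 and 11.5 FPKM in the other Scr-MO libraries, a gap of 0.914 of the range.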

How the results depend on the processing

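The count of synthetase genes called lower (0 of 29) became 8 with array weights, 3 with median-ratio scaling, 3 with quantile normalization, 1 of 23 with the main transcript only and 1 of 27 with protein-coding transcripts only, and leaving out 1 library gave 0 to 5. The count called higher (0) became 1 with array weights and was 0 without any 1 library. The cytosolic and mitochondrial medians moved by less than the spread between replicates in all settings. In the other lists (120 genes tested, 102 with the main transcript only, 66 at a mean of at least 5 FPKM, 143 with no filter), the 5 higher calls became 10 with array weights, 2 at a mean of at least 5 FPKM, 1 with no filter, and 2 to 6 without 1 library. The 11 lower calls became 32, 6 with the main transcript only, 4 with no filter, and 0 to 18 without 1 library. The causes were not tested. Array weights called 4336 genes in all, against 2010, and the share higher was 39.5%, against 54.3%; without Scr-MO replicate 2 it was 43.7%. No filter called 1012, and leaving out Med13-MO replicate 2 or Scr-MO replicate 3 called 956 or 1113.

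In 32 of 500 fits of single synthetase genes the sign differed from that reported, all in 9 genes not called. With array weights Aimp2 was -0.011, Gars -0.13, Lars2 0.024, Qars -0.14 and Tars2 -0.052. With protein-coding transcripts only Farsa was 0.074 and Qars -0.017, with a pseudocount of 5 Qars was -0.0009, and Iars was 0.044 with median-ratio scaling and 0.048 with quantile normalization. Without 1 library, the log2 fold changes ran from -0.032 to 0.34 for Aimp2, -0.22 to 0.088 for Farsa, -0.11 to 0.21 for Gars, -0.30 to 0.10 for Hars, -0.10 to 0.067 for Iars, -0.26 to 0.065 for Lars2, -0.17 to 0.12 for Qars, -0.045 to 0.15 for Tars2 and -0.21 to 0.040 for Wars. The main transcripts of Fars2, Tars2, Vars and Vars2 rest on under 30 fragments per library. No paired analysis was run because the labels give the groups no shared replicate numbers. The numbers in the library titles alternate between Scr-MO and Med13-MO. The labels do not say whether neighbouring libraries belong together, and pairing was not tested.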
